A study of Mus musculus with 5 samples.

Results

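The 8 genes described here are the Notch receptors Notch1, Notch2, Notch3 and Notch4 and the Notch ligands Jag1, Jag2, Dll1 and Dll4, taken by symbol from the 32285 genes of the deposited table, where each symbol occurs once. They were measured by droplet-based single-cell RNA sequencing of cells sorted from mouse flank tumours for the surface protein CD45, the common marker of blood-derived cells, and for exclusion of the dead-cell dye propidium iodide (PI). The tumours grew from Lewis lung carcinoma (LLC) cells, a mouse lung cancer line. In the JAG2KO group (2 libraries) these cells carried a guide RNA against Jag2, and in the Scramble group (3 libraries) a scrambled guide. The guide is in the injected cells, and the blood-derived cells that the sort keeps are the host's own. Strain, sex and age of the mice, the number of mice per library, and whether the JAG2KO line was 1 clone or a pool are not given in the sources used here, so p-values measure the spread between libraries, which may be technical. The title of the series names tumour-associated macrophages and Notch as its subject. The data bear on which cell types of the tumour carry transcripts of each receptor and ligand, and on whether their levels differed between JAG2KO and Scramble tumours.

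Notch receptors sit in the cell surface and are activated by Jagged or Delta-like ligands on a neighbouring cell. Binding exposes the receptor to cleavage by an ADAM protease and then by gamma-secretase, and the freed intracellular part enters the nucleus, joins the DNA-binding protein Rbpj and switches on targets such as Hes1 and Nrarp. Notch1 is known for directing lymphoid progenitors to the T cell fate, Notch2 for the differentiation of type 2 dendritic cells and marginal zone B cells, Notch3 for pericytes and vascular smooth muscle, and Notch4 and Dll4 for blood vessel endothelium.

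In the GRCm38 build with GENCODE M21 annotation, the receptors lie at chr2:26457903-26516663 (Notch1, minus strand, 34 exons), chr3:98013527-98150361 (Notch2, plus strand, 34 exons), chr17:32120820-32166852 (Notch3, minus strand, 33 exons) and chr17:34564268-34588503 (Notch4, plus strand, 30 exons). The ligands lie at chr2:137081456-137116644 (Jag1, minus strand, 26 exons), chr12:112907819-112929776 (Jag2, minus strand, 26 exons), chr17:15367354-15376872 (Dll1, minus strand, 11 exons) and chr2:119325784-119335962 (Dll4, plus strand, 11 exons). Exons are those of the longest transcript in the consensus coding set. Notch1, Notch3, Notch4, Dll1 and Dll4 each overlap at least 1 annotated gene on the other strand. On the same strand, Notch2 overlaps 2 annotated genes, and Notch1 and Jag2 overlap 1 each. The sources used here do not state how reads in such overlaps were counted, and their part in the members' UMIs was not tested. The study's guide sequences were not used here.

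Notch4 and Dll4 had their highest levels in the few endothelial cells of the libraries, and the 250 bases before their RefSeq start sites are shown for that reason. The sequences are from RefSeq (GRCm38.p6, both on the plus strand, chr17:34564045-34564294 and chr2:119325534-119325783). Capitals mark AGGAAG or its reverse complement CTTCCT. This is a longer string around GGAA, the core bound by ETS factors, a family known for driving endothelial genes.
Notch4: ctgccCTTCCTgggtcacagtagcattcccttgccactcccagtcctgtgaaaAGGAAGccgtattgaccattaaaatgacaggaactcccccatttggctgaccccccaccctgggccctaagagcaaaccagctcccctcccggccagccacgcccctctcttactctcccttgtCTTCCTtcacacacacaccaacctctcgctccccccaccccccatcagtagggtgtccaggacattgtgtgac
Dll4: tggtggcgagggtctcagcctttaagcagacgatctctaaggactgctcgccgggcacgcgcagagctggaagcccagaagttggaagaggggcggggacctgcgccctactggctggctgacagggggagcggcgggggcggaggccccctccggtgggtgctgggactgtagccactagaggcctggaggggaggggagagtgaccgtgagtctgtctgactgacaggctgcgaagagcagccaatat
The letters occur 3 times in the stretch of Notch4 and not in that of Dll4. The shorter GGAA occurs in both stretches and was not counted. Promoter windows of 300 bases around the start were found for all 8 genes, 9 windows in all with 2 for Dll1. The ETS letters were present on either strand in 2 of them, those of Notch4 and Dll1, against 35.35% of all 32851 windows. The Rbpj core TGGGAA was in none of the 9 windows, against 25.56% of all windows. These are matches of letters in short windows and not binding sites.

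Each library held between 10262 and 21854 barcodes and 84788907 to 111680641 unique molecular identifiers (UMIs, which mark captured transcripts). After filtering, 9450 and 17791 cells were kept in JAG2KO 1 and 2, and 8742, 9502 and 7563 in Scramble 1, 2 and 3. JAG2KO 2 stood apart, with a median of 2078 UMIs per kept cell against 7574 to 8436.5 in the other libraries and a UMI of Ptprc, the gene of CD45, in 67.3% of kept cells against 89.3% to 91.0%. Its median in macrophages was 2732 UMIs, against 10054 in JAG2KO 1 and 9551 to 10008 in the Scramble libraries. Pairs of libraries shared 26 to 74 barcodes. Cells were assigned to 20 types by gates on marker UMIs, none of which uses a member of the Notch family. The gates took 88.2% and 78.5% of kept cells in JAG2KO 1 and 2, and 89.8% to 91.1% in the Scramble libraries, and the rest stayed without a type. Cell types outside the CD45 gate (endothelial cells, fibroblasts, pericytes and cells with the LLC-enriched transcript Rhox5 but no Ptprc) numbered 67 and 150 in JAG2KO and 12 to 23 in Scramble. Levels are given in CPM, the usual scaling of a gene's UMIs to the UMIs of all genes in the same cell type and library, and in sums of this kind fewer expressing cells and less RNA per cell cannot be told apart.

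The knockout could not be checked on the targeted gene. Over all kept cells Jag2 stood at 3.57 and 2.20 CPM in JAG2KO and at 4.05, 2.99 and 4.35 CPM in Scramble, but the sort removes most of the cells that carry the guide and a guide need not lower the transcript. The 173 Rhox5-positive cells, the cells of the libraries most like the injected line by that 1 gene, had no Jag2 UMI in either JAG2KO library and 0, 1 and 0 UMIs in Scramble 1, 2 and 3.

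**Figure D1:**
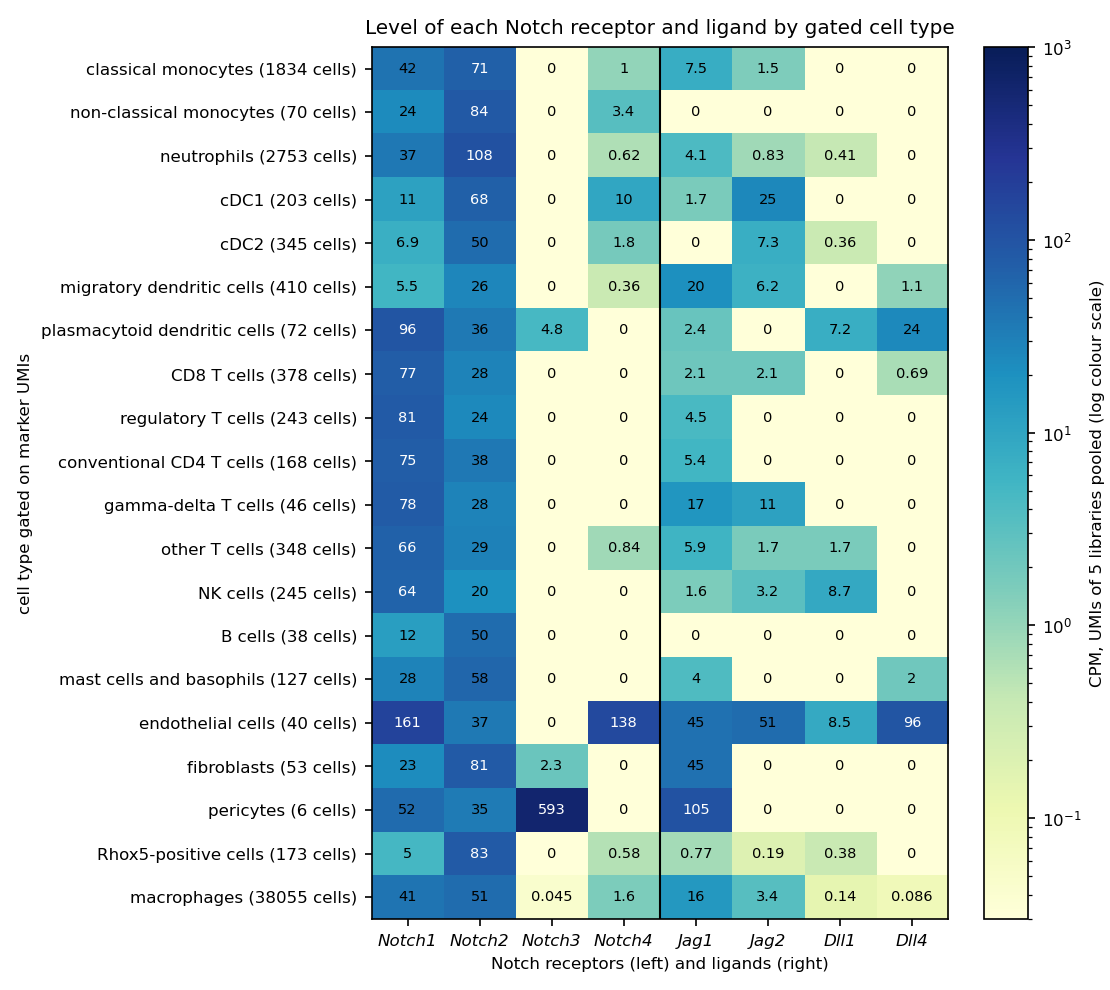
Level of each receptor (left of the line) and ligand (right) in each gated cell type, in CPM over the pooled UMIs of 5 libraries on a log colour scale, with the pooled CPM written in each field and the number of cells beside each type. Notch1 and Notch2 have UMIs in every type, while Notch3 stands at 593 CPM in 6 pericytes and Dll4 at 95.8 CPM in 40 endothelial cells.

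Notch1 was highest in T cells, NK cells, plasmacytoid dendritic cells and endothelial cells of the tumours, and lowest in Rhox5-positive cells and in the other dendritic cells. In regulatory T cells, which restrain other T cells, it stood at 63.1 and 94.0 CPM in JAG2KO 1 and 2 and at 56.9, 90.6 and 154 CPM in Scramble 1, 2 and 3, against 39.7 and 44.0 CPM and 37.8, 40.5 and 42.8 CPM in macrophages of the same libraries. Every library had more Notch1 in regulatory T cells than in macrophages, from 90 UMIs in 243 regulatory T cells over the 5 libraries. The difference was 0.86 ± 0.22 on the log2 scale (SE, adjusted p = 0.0010, edgeR). CD8 T cells, the killer T cells, had 86.3 and 71.0 CPM in JAG2KO 1 and 2, the libraries with at least 20 such cells, and differed from macrophages by 0.89 ± 0.24 (adjusted p = 0.0017, edgeR). NK cells (0.58 ± 0.23, adjusted p = 0.035) and T cells without a subset marker (0.59 ± 0.23, adjusted p = 0.031) also passed the test. Neither call held in every setting: without JAG2KO 1 the adjusted p was 0.158 for NK cells and 0.053 for these T cells, without JAG2KO 2 0.081 and 0.072, and without Scramble 3 it was 0.096 for NK cells. Without Scramble 1 it was 0.092 for these T cells. Conventional CD4 T cells did not pass (0.67 ± 0.35, adjusted p = 0.144, from JAG2KO libraries alone). Endothelial cells, where Notch1 is known to act in vessel branching, had 170 and 123 CPM in JAG2KO 1 and 2 and 93.5 and 334 CPM in Scramble 1 and 2, from 22, 22, 1 and 12 UMIs, and were not tested.

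The same gene was low in conventional and migratory dendritic cells. Type 1 dendritic cells (cDC1), which present antigen to CD8 T cells, had 17.8 and 2.57 CPM of Notch1 in JAG2KO and 17.2, 4.25 and 13.0 CPM in Scramble. The difference from macrophages was -1.76 ± 0.28 (adjusted p = 6.2e-07, edgeR). In type 2 dendritic cells (cDC2), which prime CD4 T cells, the level was 8.63 and 2.07 CPM in JAG2KO and 3.10, 12.2 and 6.90 CPM in Scramble (-2.47 ± 0.31, adjusted p = 2.0e-09). Migratory dendritic cells, which carry antigen to lymph nodes, had 2.91 and 3.79 CPM in JAG2KO and 9.41, 14.4 and 2.25 CPM in Scramble (-2.63 ± 0.33, adjusted p = 1.3e-09). The ranges of the 3 kinds over libraries overlapped, and each lay below all 5 macrophage values. In plasmacytoid dendritic cells, the interferon-producing kind, 62.3 and 80.1 CPM in JAG2KO and 118, 189 and 103 CPM in Scramble came from 6 to 11 UMIs per library, and were not tested because only JAG2KO 1 held 20 such cells. Rhox5-positive cells had 1.46 and 6.54 CPM in JAG2KO 1 and 2 (-3.12 ± 0.34 against macrophages, adjusted p = 1.8e-11), and 3.04, 4.77 and 7.08 CPM in Scramble libraries with fewer than 20 such cells each. Their median depth of 27297 and 25301 UMIs in JAG2KO 1 and 2 was the deepest of all types there.

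Read against these calls, a large part of all genes separated the types. Of 9609 genes tested, 48.7% passed the test between regulatory T cells and macrophages, 45.3% for CD8 T cells, 47.5% for NK cells, 48.6% for the other T cells and 32.9% for conventional CD4 T cells. The shares were 48.8% for cDC1, 43.4% for cDC2, 56.1% for migratory dendritic cells, 60.9% for Rhox5-positive cells, 66.4% for neutrophils, 54.4% for classical monocytes and 23.7% for mast cells and basophils. Of the 4 members tested (Notch1, Notch2, Jag1 and Jag2), 4 were called in cDC1 and Rhox5-positive cells and 3 in CD8 T cells, regulatory T cells, other T cells, NK cells and neutrophils. In cDC2, classical monocytes and migratory dendritic cells 2 were called, in conventional CD4 T cells 1 (Jag1) and in mast cells and basophils 0. Of these calls, those of Jag1 in CD8 T cells, NK cells, conventional CD4 T cells and cDC2 and that of Jag2 in Rhox5-positive cells rest on 0 to 3 UMIs in the type. The Jag2 call in Rhox5-positive cells also comes from JAG2KO libraries alone. So does the Jag1 call in Rhox5-positive cells, which rests on 2 UMIs in the libraries tested. A passed test was thus common for all genes between these types.

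Notch2 was highest in neutrophils, and higher in classical monocytes and cDC1 but lower in NK cells and in 3 of 4 kinds of T cells than in macrophages. Neutrophils, short-lived phagocytes, had 82.4 and 157 CPM in JAG2KO 1 and 2 and 107, 97.0 and 116 CPM in Scramble 1, 2 and 3, against 56.4 and 76.2 CPM and 47.1, 39.4 and 38.9 CPM in macrophages. Every library had more Notch2 in neutrophils than in macrophages, with a difference of 1.91 ± 0.13 (adjusted p = 3.9e-19, edgeR). With library totals in place of edgeR's TMM scaling the difference was 1.15, still past the threshold. Notch1 in neutrophils differed from macrophages by 0.66 ± 0.18 (adjusted p = 0.0013), but by -0.11 (adjusted p = 0.610) with library totals, so its direction there depends on the scaling. Without Scramble 3 it did not pass (0.50, adjusted p = 0.056). The median difference over all genes between neutrophils and macrophages was itself -0.23 with TMM and -1.01 with library totals, the largest shift between both scalings of any type tested. In migratory dendritic cells that median was -0.10 with TMM and -0.36 with library totals.

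Classical monocytes, the blood precursors of macrophages, had 72.0 and 105 CPM of Notch2 in JAG2KO and 78.7, 60.8 and 61.3 CPM in Scramble, above macrophages of the same library in each case (0.72 ± 0.12, adjusted p = 7.9e-07). In cDC1 it stood at 75.2 and 84.9 CPM in JAG2KO and 90.9, 42.5 and 56.9 CPM in Scramble (0.57 ± 0.15, adjusted p = 0.0013). Rhox5-positive cells had 62.8 and 113 CPM in JAG2KO 1 and 2 (0.62 ± 0.16, adjusted p = 8.8e-04), a call that was lost with no filter on low counts (0.42, adjusted p = 0.083). In cDC2, for which Notch2 is a known differentiation signal, the level was 45.1 and 55.9 CPM in JAG2KO and 65.0, 42.7 and 50.0 CPM in Scramble. It did not pass against macrophages (0.12 ± 0.16, adjusted p = 0.737), and the sign turned with library totals (-0.01). Migratory dendritic cells, at 20.4 and 30.3 CPM in JAG2KO and 43.9, 14.4 and 33.7 CPM in Scramble, had less than macrophages (-0.66 ± 0.18, adjusted p = 0.0018). Among lymphocytes, Notch2 was lower than in macrophages in NK cells (-1.45 ± 0.26, adjusted p = 4.1e-06), regulatory T cells (-1.20 ± 0.25, adjusted p = 5.7e-05), other T cells (-1.03 ± 0.23, adjusted p = 2.0e-04) and CD8 T cells (-0.98 ± 0.24, adjusted p = 6.8e-04). Conventional CD4 T cells (-0.37 ± 0.32, adjusted p = 0.416) and mast cells and basophils (0.47 ± 0.31, adjusted p = 0.416) did not pass.

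**Figure D2:**
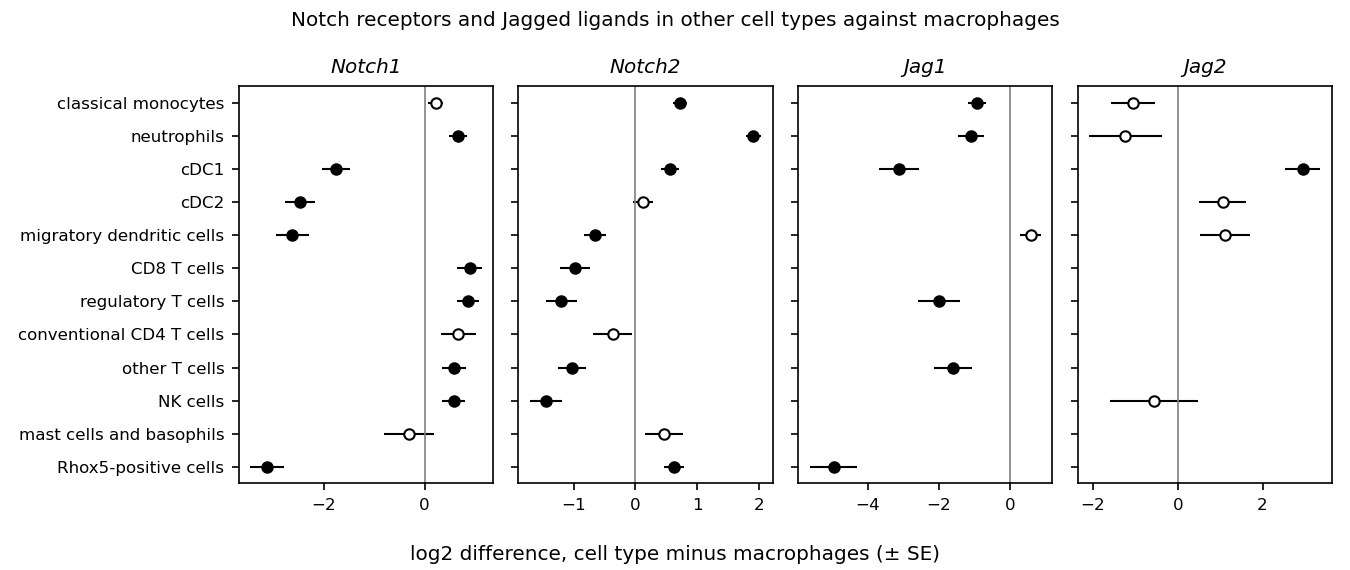
Difference of each cell type from macrophages in Notch1, Notch2, Jag1 and Jag2, on the log2 scale with its SE, as cell type minus macrophages; filled points passed the edgeR test and open points did not. Types with 3 or fewer UMIs of the gene are left out; T and NK cells lie right of 0 for Notch1 and left of 0 for Notch2, and the position of neutrophils for Notch1 turns to -0.11 with library totals.

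Over 13 cell types with at least 20 cells in 2 or more libraries, the mean log2 levels of Notch1 and Notch2 had a Pearson r of -0.37, a description of types that share libraries and depth. By median CPM over libraries, regulatory, CD8 and conventional CD4 T cells headed the order of Notch1 among types with 2 or more libraries (90.6, 78.7 and 74.9 CPM), and their ranges over libraries overlapped. The ranges of neighbours further down, NK cells and other T cells (67.8 and 64.9 CPM) and classical monocytes and macrophages (43.6 and 40.5 CPM), overlapped too. For Notch2 the order was neutrophils (107 CPM), Rhox5-positive cells (87.8 CPM), mast cells and basophils (76.0 CPM), cDC1 (75.2 CPM) and classical monocytes (72.0 CPM), with overlapping ranges, and NK cells were last at 19.2 CPM.

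Notch3 was led by pericytes, the cells that wrap small vessels. Of its 56 UMIs in kept cells, 34 were in 6 cells of the pericyte gate, at 595 and 496 CPM in JAG2KO 1 and 2 (12 and 5 UMIs) and 1844 and 430 CPM in Scramble 1 and 3 (7 and 10 UMIs), and Scramble 2 held no such cell. Macrophages held 2 and 1 UMIs in JAG2KO and 4 in each Scramble library, at most 0.068 CPM. The remaining UMIs were in cells without a type (4), plasmacytoid dendritic cells (2) and fibroblasts (1), and no comparison of cell types could be tested.

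Notch4 was led by endothelial cells, at 124 and 162 CPM in JAG2KO 1 and 2 and 93.5 and 83.4 CPM in Scramble 1 and 2, from 16, 29, 1 and 3 UMIs, and Scramble 3 held no endothelial cell. The 40 cells of this gate held 49 of 695 Notch4 UMIs, 7.05%, with 0.0905% of all UMIs. Among blood-derived cells cDC1 stood out, with 7.91 and 18.0 CPM in JAG2KO and 9.82, 17.0 and 0 CPM in Scramble, from 23 UMIs in all. Macrophages had 0.99 and 1.38 CPM in JAG2KO and 1.87, 1.98 and 1.75 CPM in Scramble, so cDC1 was above macrophages in 4 of 5 libraries and had no UMI in Scramble 3. The 245 NK cells, 243 regulatory T cells, 168 conventional CD4 T cells and 378 CD8 T cells held no Notch4 UMI, which allows up to 2.37, 2.70, 5.38 and 2.08 CPM (3 UMIs over the 5 libraries).

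Jag1 had the most UMIs of the ligands, and macrophages held 90.3% of its 5841 UMIs in kept cells, against 85.7% of the UMIs of all genes. Macrophages had 16.1 and 16.2 CPM in JAG2KO and 16.8, 14.0 and 15.5 CPM in Scramble, a narrow range. Migratory dendritic cells had 25.2 and 22.7 CPM in JAG2KO and 12.6, 16.8 and 15.7 CPM in Scramble, and the difference from macrophages did not pass the test (0.58 ± 0.29, adjusted p = 0.079), although it did without Scramble 1 (0.68, adjusted p = 0.038). Both kinds of conventional dendritic cells had less. No Jag1 UMI was found in 345 cDC2, which puts their level at least 14.4-fold lower than that of macrophages, and 4 UMIs in 203 cDC1 gave 1.68 CPM (-3.11 ± 0.56, adjusted p = 8.3e-06). Classical monocytes (-0.92 ± 0.25, adjusted p = 0.0015), neutrophils (-1.09 ± 0.37, adjusted p = 0.0085), regulatory T cells (-1.99 ± 0.59, adjusted p = 0.0044), other T cells (-1.61 ± 0.54, adjusted p = 0.011) and Rhox5-positive cells (-4.96 ± 0.67, adjusted p = 1.4e-08) were also below macrophages. The call in Rhox5-positive cells rests on 2 UMIs, from JAG2KO libraries alone. In NK cells 2 UMIs gave 0.10 of the macrophage level (95% counting interval 0.012 to 0.364), and in CD8 T cells 3 UMIs gave 0.13 of it (0.027 to 0.388). In 72 plasmacytoid dendritic cells 1 UMI gave 0.15 of it (0.004 to 0.854). Pericytes had the highest pooled level of Jag1, 105 CPM from 6 UMIs in 6 cells. Jag1 stood at 30.9 and 67.0 CPM in endothelial cells of JAG2KO 1 and 2, while the 5 endothelial cells of Scramble 1 and 2 held no UMI. Fibroblasts had 79.9 and 12.5 CPM of Jag1 in JAG2KO 1 and 2, from 17 and 1 UMIs, and 43.2, 0 and 0 CPM in Scramble, from 2, 0 and 0 UMIs. Jag1 was close to the filter on low counts and entered the test in 5 of 12 alternatives.

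Jag2, the gene targeted in the cancer cells, had 84.2% of its UMIs in macrophages, close to their 85.7% of the UMIs of all genes, and its highest level among well-sampled types in cDC1. In cDC1 it stood at 19.8 and 20.6 CPM in JAG2KO and 24.6, 12.7 and 42.2 CPM in Scramble, against 3.37 and 1.98 CPM and 4.09, 2.96 and 4.35 CPM in macrophages. Every library had more in cDC1 than in macrophages (2.95 ± 0.42, adjusted p = 8.7e-08, edgeR). The 203 cDC1 held 60 of 1347 Jag2 UMIs, 4.45%, with 0.609% of all UMIs. The cDC2 (10.5 and 8.28 CPM in JAG2KO, 0, 0 and 8.62 CPM in Scramble) and migratory dendritic cells (6.79 and 3.79 CPM in JAG2KO, 25.1, 0 and 0 CPM in Scramble) did not pass against macrophages (1.06 ± 0.55, adjusted p = 0.122, and 1.11 ± 0.58, adjusted p = 0.100). For cDC2 the test was passed without Scramble 2 (1.38, adjusted p = 0.049), and for migratory dendritic cells without Scramble 2 (1.48, adjusted p = 0.034) or Scramble 3 (1.53, adjusted p = 0.031). Endothelial cells had 54.1 and 27.9 CPM in JAG2KO 1 and 2 and 187 and 111 CPM in Scramble 1 and 2, from 2 to 7 UMIs. Classical monocytes did not pass (-1.06 ± 0.52, adjusted p = 0.082), although they did without JAG2KO 1 (-2.16, adjusted p = 0.011), and neutrophils passed only with library totals (-1.23 ± 0.85, adjusted p = 0.200, against -1.98, adjusted p = 0.021) among the 12 alternatives. Lymphocytes held few Jag2 UMIs. None was found in 243 regulatory T cells, which allows up to 2.70 CPM, and 3 in 378 CD8 T cells gave 2.08 CPM, or 0.62 of the macrophage level (95% counting interval 0.127 to 1.81). In 245 NK cells 4 UMIs gave 3.16 CPM, near the macrophage level (-0.57 ± 1.04, adjusted p = 0.690), and in 46 gamma-delta T cells 2 UMIs gave 11.2 CPM, 3.31 times that level with an interval of 0.40 to 12.0. In Rhox5-positive cells the 1 UMI gave 0.06 of the macrophage level (95% counting interval 0.001 to 0.317). These cells numbered 45 and 88 in JAG2KO and 14, 7 and 19 in Scramble. Most thus come from tumours grown from cells with the guide against Jag2, so cell type and guide cannot be told apart here.

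The Delta-like ligands were rare. Dll1 had 80 UMIs in kept cells. NK cells had 2.43 and 11.8 CPM in JAG2KO and 8.37, 15.1 and 14.2 CPM in Scramble, from 11 UMIs, and held 13.8% of all Dll1 UMIs with 0.323% of the UMIs of all genes. Macrophages had 0.10 to 0.17 CPM, below NK cells in every library. Dll4 had 100 UMIs, of which 34 were in endothelial cells (69.6 and 83.8 CPM in JAG2KO 1 and 2, 187 and 222 CPM in Scramble 1 and 2) and 10 in 72 plasmacytoid dendritic cells (38.9 and 11.4 CPM in JAG2KO, 39.2, 0 and 18.8 CPM in Scramble). Endothelial cells were above every other type in both groups, from 2 to 15 UMIs per library. Neither ligand entered the test between cell types.

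**Figure D3:**
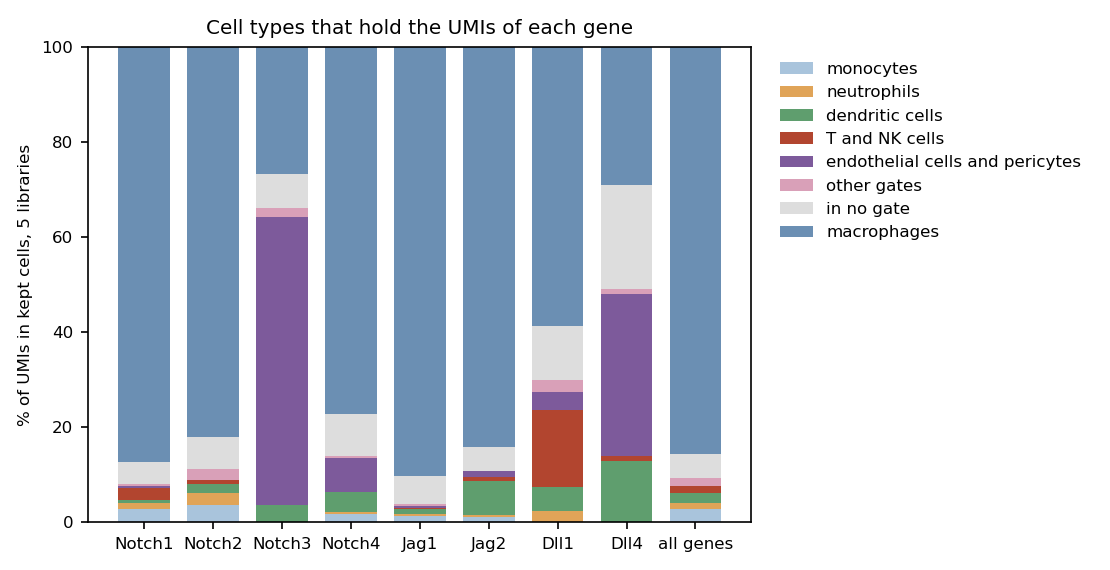
Share of the UMIs of each gene that fell in each group of gated cell types, in percent of its UMIs in the kept cells of 5 libraries, with all genes at the right. Macrophages hold 77.1% to 90.3% of the UMIs of Notch1, Notch2, Notch4, Jag1 and Jag2 but 26.8% of those of Notch3 and 29% of those of Dll4.

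Macrophages, at 6760 and 12535 cells in JAG2KO and 5214 to 7134 in Scramble, thus held most UMIs of the common members. A receptor UMI was found in 59.7% and 36.6% of macrophages in JAG2KO 1 and 2 and in 56.2%, 53.0% and 56.1% in Scramble, and a ligand UMI in 16.2% and 6.86% in JAG2KO and 16.2%, 13.6% and 16.8% in Scramble. JAG2KO 2 was low in both, as in depth. With each cell thinned to 1000 UMIs, which left out 59 and 1598 shallower macrophages in JAG2KO and 42, 178 and 50 in Scramble, shares with a Notch1 UMI were 4.24% and 4.27% in JAG2KO and 3.94%, 4.54% and 4.45% in Scramble. The groups overlapped. In migratory dendritic cells, at the low end of Notch1 by CPM, the thinned shares were 0% and 0% in JAG2KO and 2.22%, 2.38% and 0% in Scramble, from 42 to 148 cells with median depths of 3956 to 6394 UMIs before thinning. In macrophages, thinned shares with a Notch2 UMI were 5.39% and 8.50% in JAG2KO and 4.73%, 4.17% and 4.53% in Scramble, with both JAG2KO libraries on top. In NK cells, with less Notch2 by CPM than macrophages, the thinned shares were 1.16% and 3.08% in JAG2KO and 5.26%, 0% and 0% in Scramble, from 86, 65, 38, 18 and 32 cells with median depths of 3186.5 to 4313 UMIs before thinning. Before thinning, the Notch2 shares of macrophages were 42.6% and 25.9% in JAG2KO and 37.4%, 32.2% and 33.6% in Scramble, where JAG2KO 2, the shallow library, was lowest.

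No member passed the test between JAG2KO and Scramble macrophages. Of 14467 genes tested in macrophages, 3.98% passed, and of the 6 members tested 0 passed by edgeR, 2 lay below the threshold by unadjusted p (18.9% of all genes did) and 1, Notch2, was called by DESeq2 (0.67, adjusted p = 0.0037). Notch2 stood at 56.4 and 76.2 CPM in JAG2KO and 47.1, 39.4 and 38.9 CPM in Scramble, and averaged 66.3 ± 14.1 CPM in JAG2KO (SD, n = 2) and 41.8 ± 4.62 CPM in Scramble (SD, n = 3). The groups did not overlap, as held for 18.4% of the genes in the same direction. The difference was 0.66 ± 0.16 on the log2 scale (1.58-fold, adjusted p = 0.075, edgeR). Over 15 alternatives its adjusted p ran from 0.0037 to 0.215. Without JAG2KO 2 it was 0.37 (adjusted p = 0.202), and without JAG2KO 1 it was 0.90 (adjusted p = 0.014). The higher of the JAG2KO values came from the shallow library, and with all sums thinned to the smallest library the difference was 0.65 (adjusted p = 0.078).

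Other cell types' markers in the macrophage gate also differed between groups. Of all genes tested in macrophages, 18.4% were higher in both JAG2KO libraries than in all Scramble libraries and 16% were lower. All 5 T cell markers were higher in both JAG2KO libraries than in all Scramble libraries, with summed levels of 10.9 and 35.8 CPM in JAG2KO and 3.76, 6.73 and 2.86 CPM in Scramble, and so were 4 of 8 cDC2 markers (181.5 and 226.8 CPM in JAG2KO, against 88.0, 90.3 and 106 CPM in Scramble) and 6 of 8 markers of migratory dendritic cells (138 and 160 CPM in JAG2KO, against 140, 127 and 130 CPM in Scramble). The sums of migratory markers overlapped between groups. NK cell markers were higher in both JAG2KO libraries for 5 of 7 genes (4.63 and 8.46 CPM in JAG2KO, against 3.25, 3.50 and 2.84 CPM in Scramble). Non-classical monocyte markers were higher in both for 3 of 7 genes and lower for 2 (40.6 and 53.7 CPM in JAG2KO, against 24.0, 30.5 and 25.9 CPM in Scramble). Fibroblast markers were lower in both for 5 of 8 genes (169.8 and 201 CPM in JAG2KO, against 213, 376 and 223 CPM in Scramble), as were 1 cDC2 marker and 1 migratory marker. Plasmacytoid markers were higher in both for 2 of 8 genes (7.14 and 18.3 CPM in JAG2KO, against 6.66, 5.60 and 4.74 CPM in Scramble). The lists of classical monocytes, neutrophils, cDC1, B cells, mast cells and basophils, endothelial cells and pericytes had 0 to 2 markers higher in both and 0 to 3 lower. Among the macrophage gate's own markers, Apoe, C1qa, Mrc1, Ms4a7 and Trem2 were lower in both JAG2KO libraries than in all Scramble libraries. Mrc1 stood at 1041 and 681 CPM in JAG2KO and 1199, 1104 and 1207 CPM in Scramble. C1qa stood at 3536 and 3716 CPM in JAG2KO and 4098, 4198 and 3828 CPM in Scramble. Adgre1, C1qb and C1qc overlapped between groups. The part of all these markers in the Notch2 result was not tested. Rhox5 stood at 49.0 and 20.8 CPM in JAG2KO macrophages and 31.6, 39.7 and 40.4 CPM in Scramble macrophages, and its part in the Notch2 result was not tested either. Apart from 2 B cell markers, none of the markers in these lists was at 0 in any library.

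**Figure D4:**
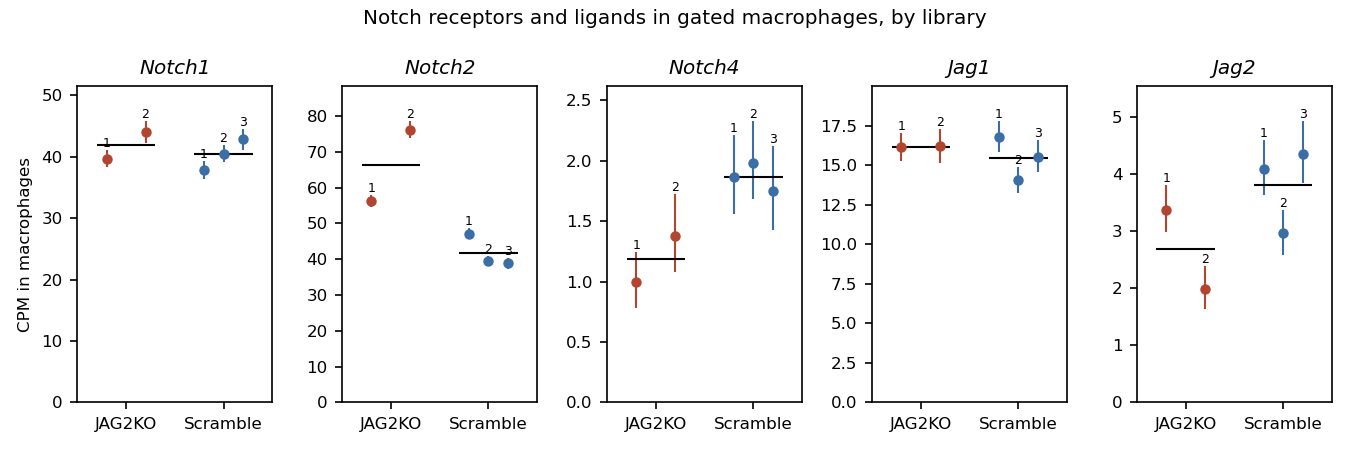
Notch1, Notch2, Notch4, Jag1 and Jag2 in gated macrophages, in CPM on linear axes that start at 0, for JAG2KO (left, libraries 1 and 2) and Scramble (right, libraries 1 to 3). Points are libraries with exact 95% Poisson intervals of counting error, and horizontal lines are group means; for Notch2 both JAG2KO libraries lie above all Scramble libraries and for Notch4 both lie below.

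Notch4 was lower in both JAG2KO libraries but did not pass, with 0.99 and 1.38 CPM in JAG2KO macrophages and 1.87, 1.98 and 1.75 CPM in Scramble macrophages (-0.67 ± 0.22, unadjusted p = 0.020, adjusted p = 0.165, edgeR). The groups did not overlap, as held for 16% of genes in that direction, and each value rested on 75 to 151 UMIs. In macrophages thinned to 1000 UMIs the shares with a Notch4 UMI were 0.0895% and 0.283% in JAG2KO and 0.173%, 0.244% and 0.174% in Scramble, from 6 and 31 cells with a UMI in JAG2KO and 11, 17 and 9 in Scramble. The groups overlapped there, with JAG2KO 2 highest and JAG2KO 1 lowest. Jag2 in macrophages had 3.37 and 1.98 CPM in JAG2KO and 4.09, 2.96 and 4.35 CPM in Scramble, with overlapping groups (-0.52 ± 0.26, adjusted p = 0.344). Notch1 (0.04 ± 0.10, adjusted p = 0.882) and Jag1 (0.05 ± 0.10, adjusted p = 0.848) had the narrowest errors and differences near 0. Dll1, at 8 to 12 UMIs per library, had a difference of -0.30 ± 0.44 (adjusted p = 0.790).

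In the other cell types no member passed by edgeR or DESeq2, and fewer could be tested. The values of Notch2 were 0.36 ± 0.20 in classical monocytes (adjusted p = 0.699, edgeR), 0.34 ± 0.30 in cDC1 (adjusted p = 0.909), 0.23 ± 0.26 in neutrophils (adjusted p = 0.857), -0.07 ± 0.29 in cDC2 (adjusted p = 0.984) and -0.24 ± 0.48 in migratory dendritic cells (adjusted p = 0.933). Notch1 in T cells of all kinds stood at 74.0 and 71.3 CPM in JAG2KO and 73.9, 76.5 and 105 CPM in Scramble (-0.13 ± 0.23, adjusted p = 0.962). The values of Notch1 in single types were 0.29 ± 0.41 in NK cells, -0.33 ± 0.37 in regulatory T cells, -0.14 ± 0.42 in other T cells, 0.56 ± 0.36 in neutrophils and 0.19 ± 0.17 in classical monocytes, with adjusted p from 0.696 to 0.998. Among ligands, Jag2 was -0.47 ± 0.49 in cDC1 (adjusted p = 0.942), and Jag1 was 0.72 ± 0.46 in migratory dendritic cells (adjusted p = 0.745) and -0.61 ± 0.54 in classical monocytes (adjusted p = 0.848). None of these values was below the threshold by unadjusted p either. Of all genes, edgeR called 0.253% in classical monocytes (8.48% by unadjusted p), 0.16% in cDC1 (7.06%), 1.04% in cDC2 (10%), 0.479% in migratory dendritic cells (8.57%) and 0.18% in neutrophils (8.8%). It called 0.0232% in NK cells (4.03% by unadjusted p), 0.523% in all T cells (7.42%), 0.106% in other T cells (5.03%) and 0.129% in regulatory T cells (4.65%). CD8 T cells numbered 7 or 8 in each Scramble library and endothelial cells 0 to 3, so their Notch1, Notch4 and Dll4 could not be compared between groups.

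The JAG2KO difference of Notch2 in macrophages was then set against that in 8 other cell types in a joint fit. Effect in the type minus effect in macrophages was -0.87 ± 0.76 in NK cells, -0.82 ± 0.72 in regulatory T cells, -0.75 ± 0.48 in migratory dendritic cells and -0.71 ± 0.40 in cDC2 on the log2 scale. It was -0.47 ± 0.34 in neutrophils, -0.30 ± 0.38 in cDC1, -0.26 ± 0.31 in classical monocytes and 0.27 ± 0.78 in other T cells. The smallest adjusted p was 0.682 (edgeR), so a difference particular to macrophages was not shown. None of the 4 members in these fits passed in any of the 8 types, where few of 9180 genes did (0.0109% in NK cells, 0% in cDC1 and neutrophils, 0.0327% in cDC2, 0.098% in classical monocytes and in regulatory T cells, 0.218% in migratory dendritic cells and 0.207% in other T cells). Below the threshold by unadjusted p lay Jag2 in classical monocytes (2.58 ± 1.15, as did 3.65% of genes), from 10 and 0 UMIs in JAG2KO and 2 in each Scramble library.

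Over all kept cells, which mixes levels with the make-up of the libraries, 0 of 8 members passed, 6.77% of 15080 genes did, and 2 members were below the threshold by unadjusted p, as were 21.3% of genes. Notch2 stood at 55.7 and 78.4 CPM in JAG2KO and 50.0, 41.2 and 42.2 CPM in Scramble (0.55 ± 0.17, adjusted p = 0.109, edgeR), and DESeq2 called it (adjusted p = 0.025). Without JAG2KO 2 it was 0.24 (adjusted p = 0.398), and without JAG2KO 1 0.81 (adjusted p = 0.019). Dll4 stood at 0.25 and 0.52 CPM in JAG2KO, from 23 and 36 UMIs, and at 0.18, 0.19 and 0.16 CPM in Scramble, from 14, 16 and 11 UMIs (1.07 ± 0.41, unadjusted p = 0.033, adjusted p = 0.186). Both JAG2KO libraries were on top, as held for 24% of genes, and they also held 6 and 29 gated endothelial cells against 3, 2 and 0 in Scramble. These cells held 9 of the 23 and 15 of the 36 Dll4 UMIs in JAG2KO, and 2 and 8 UMIs in Scramble 1 and 2. The part of endothelial cell numbers in the Dll4 difference was not tested. Jag2 had 3.57 and 2.20 CPM in JAG2KO and 4.05, 2.99 and 4.35 CPM in Scramble (-0.44 ± 0.24, adjusted p = 0.351). Notch1 (0.00 ± 0.09), Notch3 (-0.09 ± 0.64), Notch4 (-0.26 ± 0.26), Jag1 (-0.01 ± 0.11) and Dll1 (0.29 ± 0.36) had adjusted p from 0.650 to 0.986.

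The other parts of the pathway were followed in 53 genes for sugar transfer to the receptors, receptor cleavage, trafficking, further ligands, the nuclear complex and target genes. In macrophages 45 were tested and 0 passed by edgeR, with 10 below the unadjusted threshold and a median difference of -0.03 against 0.00 for all genes, and DESeq2 called 1. Over all genes tested in macrophages, 18.9% were below the unadjusted threshold. By role, 5 of 11 tested trafficking genes, 2 of 10 of the nuclear complex, 2 of 6 targets, 1 of 6 for sugar transfer, 0 of 10 for cleavage and 0 of 2 other ligands were below the unadjusted threshold. In the other 9 groups of cells tested, 13 to 36 of the 53 genes could be tested and 0 passed by edgeR, with 0 to 4 below the unadjusted threshold, as were 4.03% to 10% of all genes there. Over all kept cells 2 of 45 tested genes rose in JAG2KO, where 3.67% of all genes did, and 0 fell, where 3.1% did. Il2ra, the alpha chain of the interleukin-2 receptor and a Notch target in T cells, stood at 10.7 and 8.33 CPM in JAG2KO and 2.51, 3.73 and 3.54 CPM in Scramble (1.50 ± 0.18, adjusted p = 0.0057, edgeR). Nrarp, a target that dampens Notch signalling, stood at 0.95 and 1.23 CPM in JAG2KO and 0.41, 0.36 and 0.58 CPM in Scramble (1.24 ± 0.29, adjusted p = 0.048), and the call was lost without JAG2KO 1 (adjusted p = 0.058), JAG2KO 2 (0.182), Scramble 1 (0.138) or Scramble 2 (0.162). Within regulatory T cells Il2ra stood at 896 and 512 CPM in JAG2KO and 417, 544 and 737 CPM in Scramble. These cells numbered 95 and 56 in JAG2KO and 31, 41 and 20 in Scramble. Kept cells numbered 9450 and 17791 in JAG2KO and 8742, 9502 and 7563 in Scramble. As a share of these, regulatory T cells of JAG2KO 2 lay within the Scramble range. T cells of all kinds numbered 477 and 451 in JAG2KO and 99, 88 and 68 in Scramble. The part of cell numbers in the Il2ra and Nrarp differences was not tested. Over all T cells Il2ra stood at 324 and 161 CPM in JAG2KO and 284, 370 and 442 CPM in Scramble (-0.52 ± 0.25, adjusted p = 0.692, edgeR). In macrophages Nrarp (0.80 ± 0.36, adjusted p = 0.288) and Il2ra (1.49 ± 0.51, adjusted p = 0.174) did not pass. In NK cells Nrarp stood at 36.5 and 23.7 CPM in JAG2KO and 8.37, 0 and 33.2 CPM in Scramble. These values came from 15 and 8 UMIs in JAG2KO and 2, 0 and 7 in Scramble, and the groups overlapped.

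Finally, the 6 members with at least 100 UMIs were set against 13751 other genes by their mean log2 level over the 13 cell types, for description. The genes most like Notch1 were Fyb, an adaptor of T cell receptor signalling (Pearson r = 0.94), Cab39 (0.92) and Pitpnc1 (0.92). Those most like Notch2 were Soat1, which esterifies cholesterol (0.89), Flot1 (0.88) and Slc31a2 (0.86). For Jag1 they were Rbms3 (0.86), Adam1a (0.86) and Cygb (0.85). Jag2 was most like Sult1a1 (0.93), Slc46a3 (0.91) and Hepacam2 (0.89), and Notch4 most like Gm10053 (0.95), 2310040G24Rik (0.94) and Naaa (0.94). Between members, Notch4 and Jag2, both highest in cDC1 among the 13 types, had an r of 0.82. Notch4 had 536 UMIs in macrophages, 23 in cDC1 and at most 11 in any other of the 13 types. Its correlations thus rest on few UMIs outside macrophages. Genes close to Dll4 were Nkd2 (0.95) and Tbx2 (0.93), from few UMIs outside macrophages. The 13 types do not include endothelial cells, pericytes or plasmacytoid dendritic cells, which had 20 cells in fewer than 2 libraries.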

How the data were processed

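Droplet single-cell RNA was sequenced from sorted tumour cells in 2 JAG2KO and 3 Scramble libraries. The authors deposited unnormalized UMI counts by gene and cell barcode, made with Cell Ranger 6.0.0 per the file headers, on GRCm38 (mm10) with Seurat per the submitters' processing notes; barcodes without a cell had been removed per the labels. Here, a cell needed 500 UMIs, 250 genes and a mitochondrial share of no more than 10%, and the top 8% of simulated-doublet scores in each library were removed. Cells were typed by the number of detected markers (at least 5 of 8 for macrophages, 3 to 4 for other types; at least 3 Rhox5 UMIs without Ptprc for Rhox5-positive cells); ties got no type. UMIs were summed per type and library with at least 20 cells. Sums were tested with edgeR 4.0.16 (quasi-likelihood, TMM, filter on low counts, R 4.3.3) with Benjamini-Hochberg adjustment over all genes and a threshold of 0.05: JAG2KO against Scramble without covariates, each type against macrophages with library as a block, and the difference between group effects. CD8 and conventional CD4 T cells and Rhox5-positive cells thus rest on JAG2KO libraries alone, NK cells on 4 libraries, and mast cells and basophils on 3. The SE follows from the edgeR fit, Poisson and binomial intervals are exact and cover counting error only, and floors are 3 UMIs over the libraries pooled. Simulated macrophage sums had 100 genes changed 2-fold and 100 changed 4-fold. Of those left after the filter on low counts, 72.4% and 90.8% were recovered. In simulated sums of NK cells against macrophages, made alike, these shares were 28.0% and 58.6%. That simulation fitted these 2 types alone, while the reported tests against macrophages came from a joint fit of all types on 9609 genes. Its shares are thus not those of the reported test. False calls numbered 7 and 13 among 14467 and 14835 genes.

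All 8 members were named in each comparison where tested, pathway genes only where past the threshold, and genes most like a member by the 3 highest correlations, of which 1 is not reported here. The members, marker and pathway lists were chosen with earlier results of these data known. Alternatives were DESeq2 1.42.0 (test and size factors), no filter, stricter cell filters, doublets kept, 1 more marker per gate, thinned sums, a replicate block, and each library left out; library totals alone were added after the data were seen. No cell annotation was used, and B cells, non-classical monocytes, gamma-delta T cells and the vascular and stromal types were too few to test.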

Additional observations from a re-analysis of the deposited data

How the results depend on the processing

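Of the 15 alternatives for JAG2KO against Scramble, 4 changed the number of members called in macrophages, where 0 became 1 with no filter on low counts, without JAG2KO 1, with the DESeq2 test and with the replicate block, each time Notch2 (log2 difference 0.37 to 0.90, adjusted p 0.0037 to 0.215 over the alternatives). Over all kept cells 0 became 1 with no filter, without JAG2KO 1 and with DESeq2, again Notch2 (0.24 to 0.81, adjusted p 0.019 to 0.398). The cause was not tested. Pathway genes called in macrophages went to 1 with no filter, with DESeq2 and without JAG2KO 2, and to 2 with the block; over all kept cells they went to 5 with no filter and with DESeq2 and to 1 at 5% mitochondrial UMIs or with doublets kept, and ran from 1 to 2 over libraries left out.

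JAG2KO 1 and Scramble 1, and likewise the libraries numbered 2, share a number in the labels, which state no pairing, and with 2 pairs none can be shown; in macrophages deviations of same-numbered libraries correlated at 0.17 and 0.16. The replicate block called Notch2 in macrophages (0.60, adjusted p = 0.022) and turned the sign of Notch1 in all T cells (0.0108), regulatory T cells (0.12) and all kept cells (0.0361), of Jag2 in cDC1 (0.0778) and of Notch3 over all kept cells (0.20), none of them past the threshold.

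Of the other signs that turned, 1 belonged to a call, Notch1 in neutrophils against macrophages (0.66, adjusted p = 0.0013), and the rest to values that did not pass in either setting. At 5% mitochondrial UMIs, Notch1 was -0.0691 in NK cells, 0.51 in other T cells and 0.0022 over all kept cells, Notch2 was 0.0078 in cDC2, Jag1 was 0.0626 over all kept cells, and the effect difference of Notch2 in other T cells was -0.36. With 1 more marker, Notch1 was -0.0672 in NK cells, Notch2 was 0.14 in cDC2 and that effect difference was -0.34. With doublets kept, Notch2 in migratory dendritic cells was 0.0287 and Notch1 over all kept cells 0.0116. With library totals, Notch1 was 0.0384 and Jag1 0.0386 over all kept cells, Notch2 in cDC2 against macrophages was -0.0094, and Notch1 in neutrophils against macrophages was -0.11 (adjusted p = 0.610). Leaving out each library in turn, the JAG2KO difference of Notch1 ran from -0.0808 to 0.15 in macrophages, from -0.0006 to 0.65 in NK cells, from -0.16 to 1.01 in neutrophils, from -0.35 to 0.0435 in other T cells, from -0.57 to 0.0303 in regulatory T cells and from -0.11 to 0.0857 over all kept cells. That of Notch2 ran from -0.21 to 0.14 in cDC2, from -0.63 to 0.10 in migratory dendritic cells and from -0.37 to 0.65 in neutrophils, and that of Jag1 from -0.0152 to 0.12 in macrophages. Over all kept cells Notch3 ran from -0.73 to 0.29, Notch4 from -0.73 to 0.11 and Jag1 from -0.0775 to 0.0860.

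Against macrophages, members called fell with at least 1000 UMIs, 5% mitochondrial UMIs, doublets kept and 1 more marker to 1 in cDC2, to 1 in classical monocytes and to 0 in conventional CD4 T cells, since Jag1 passed the filter in 5 of 12 alternatives. They fell to 1 in NK cells with 1000 UMIs, 5% mitochondrial UMIs or 1 more marker, and to 1 in other T cells with 5% mitochondrial UMIs or doublets kept. Leaving out each library in turn gave 1 to 3 calls in cDC2, neutrophils, NK cells and other T cells (neutrophils had 1 without Scramble 3), 1 to 2 in classical monocytes and 0 to 1 in conventional CD4 T cells. Shares of macrophages with a UMI, as means of 5 libraries, moved when cells were thinned to 1000 UMIs, being 4.29% for Notch1 (29.3% unthinned), 5.46% for Notch2 (34.4%), 1.70% for Jag1 (11.2%) and 0.332% for Jag2 (3.08%). Depth limits Notch3, Dll1 and Dll4, at 56, 80 and 100 UMIs.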
